A study of Cunninghamia lanceolata with 3 samples.

Results

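Transcripts for dehydrins, for late embryogenesis abundant (LEA) proteins and for further cold-responsive proteins were followed through the yearly cycle of the vascular cambium, the dividing cell layer between wood and bark, in the conifer Cunninghamia lanceolata (Chinese fir). The members are unigenes, that is, assembled transcript sequences, whose best protein hit is described as a dehydrin, a late embryogenesis abundant or LEA protein, or a protein induced by, responsive to or regulated by cold or low temperature. Of 53590 unigenes with a read, 17 had such a description, and the 10 with most reads over the 3 libraries are the members. The members were thus chosen by their summed reads, so a unigene with many reads in 1 library entered through that library, and the counts below are a description of the 10. The last member inside the limit was Unigene4398 with 385 reads, and the first outside it was Unigene377 with 155 reads.

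The study sequenced messenger RNA from the cambium of trees that grew outdoors and were 16 years of age, with a height of 15 m and a stem of 12 cm across, per the labels (all approximate). There was 1 library from dormant, 1 from reactivating and 1 from actively growing cambium, each taken as tangential cryosections. Neither the number of trees per library nor the sampling dates are in the labels. No genotype, clone or treatment is named.

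LEA proteins are small, mostly hydrophilic proteins first described in maturing seeds, where they accumulate as the embryo dries. Dehydrins are one of their groups and are known to gather in cold-hardened or drying plant cells, where they are thought to protect membranes and other proteins. In trees of cold and temperate climates, the cambium stops dividing in autumn and its cells become tolerant of frost and of the water loss that comes with ice outside the cells. Many genes of this class respond to low temperature, to drought and to the hormone abscisic acid, partly through transcription factors of the DREB/CBF family.

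Depth was alike, with 5.85 M, 5.85 M and 5.84 M uniquely placed reads (M for mega) for dormant, reactivating and active cambium. Levels are given as RPKM, reads scaled by unigene length and library total. With 1 library per stage no difference has a replicate check, and no p-value was computed. The 95% intervals in parentheses cover the counting of reads only. Among markers of cambial and meristem regulators, 9 of 36 with enough reads were higher by 2-fold or more and 5 were lower by as much in the reactivating than in the dormant library (16.9% and 13.8% over all measured unigenes), 22 stayed within 2-fold, and 3 of 46 had no read from dormant, 3 from reactivating and 4 from active cambium. A putative WUS homeobox unigene (Unigene51479), of a family that maintains plant stem cells, had 13, 244 and 192 reads at the dormant, reactivating and active stages and the highest ratio of the list by the rule. A CLAVATA1-like receptor kinase (Unigene12423), with the lowest, had 81, 23 and 43 reads. Another of that description (Unigene50211), with most reads of the list, had 366, 1062 and 1190 reads. Unigene50211 was 2.90-fold higher (2.57 to 3.28) in the reactivating than in the dormant library.

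As a group the 10 unigenes took 0.381% of all reads in the dormant library, 0.0205% in the reactivating library and 0.0185% in the active one. Their summed RPKM was 12722 in dormant, 499.6 in reactivating and 421 in active cambium. In the reactivating library 8 members were at least 2-fold lower than in the dormant library and 2 were at least 2-fold higher, while 13.8% of all 36274 unigenes measured there (20 reads or more in the pair of libraries) were lower and 16.9% were higher. The median log2 ratio was -3.88 over the 10 members and 0.07 over all measured unigenes. In bulk tissue, fewer cells of a type and less RNA per cell cannot be told apart.

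**Figure D1:**
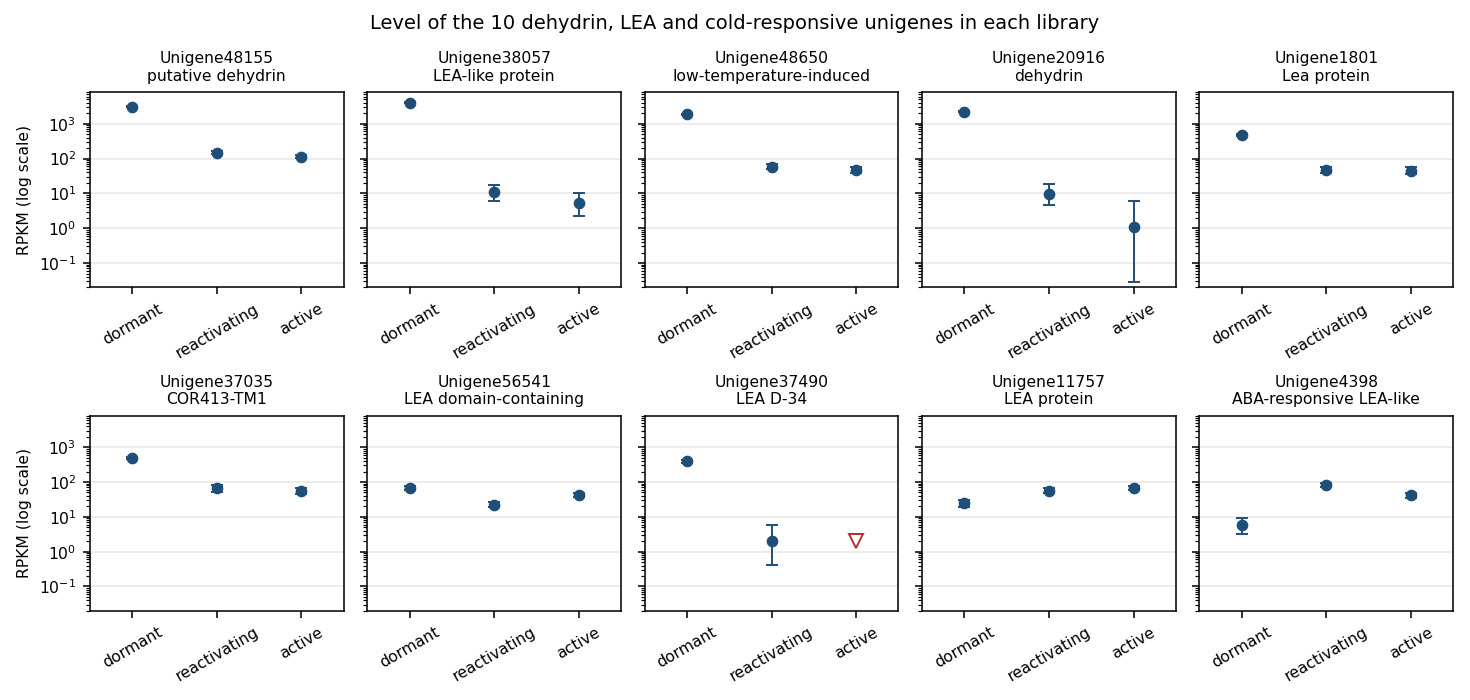
Level of each of the 10 unigenes in the dormant, reactivating and active libraries, as RPKM on a log scale, with 1 library per stage. Points are RPKM, bars are 95% Poisson counting intervals, and the open triangle marks 0 reads, drawn at the floor of 3 reads. Of the 10 unigenes, 8 were highest in the dormant library, and Unigene11757 and Unigene4398 were lowest there.

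Both dehydrin-named members were abundant at rest. The putative dehydrin Unigene48155 (396 bases, best hit in Cupressus sempervirens, an evergreen cypress) had 7234, 339 and 264 reads at the dormant, reactivating and active stages, which is 3123, 146 and 114 RPKM. It stood at rank 12 of all unigenes by reads in the dormant library, at rank 4509 in the reactivating one and at rank 6133 in the active one. Most of the decrease lay between the dormant and reactivating libraries, where it was 21.3-fold lower (19.1 to 23.9) in the reactivating one. The active library was a further 1.28-fold lower (1.09 to 1.51) than the reactivating one.

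The second dehydrin, Unigene20916 (155 bases, best hit in durum wheat), was close to absent outside dormancy. It had 2036 reads in dormant, 9 in reactivating and 1 in active cambium, or 2246, 9.93 and 1.10 RPKM. The reactivating library was 226-fold lower (119 to 496) than the dormant library. For the active library the ratio rests on a single read and was 2034-fold lower (365 to 80380) than in the dormant library. With 10 reads in the reactivating and active libraries together, this dehydrin was not measured between these libraries. Both dehydrins were high in the dormant library alone, yet Unigene48155 kept a clear level in growing cambium and Unigene20916 did not.

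Among the LEA-named members, Unigene38057 and Unigene37490 had 16 reads or fewer in each library of growing cambium, and the other 4 kept clear levels there. The LEA-like protein Unigene38057 (255 bases, best hit in Picea sitchensis, a spruce) had 5974, 16 and 8 reads at the dormant, reactivating and active stages, or 4005, 10.7 and 5.37 RPKM, and was the member with the highest level per length at rest. It was 373-fold lower (230 to 654) in the reactivating than in the dormant library. Among 14903 unigenes with 200 reads or more in this pair of libraries, 11 had a lower ratio.

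Unigene37490, with a best hit to LEA protein D-34 of castor bean (a class of seed-maturation proteins), had 571 reads in dormant, 3 in reactivating and 0 in active cambium. These are 390.5 and 2.05 RPKM in the dormant and reactivating libraries, with none in the active library. The reactivating library was 190-fold lower (64.8 to 926) than the dormant one. The active library, set to a floor of 3 reads, was also 190-fold lower than the dormant one. From its 0 reads, the counting interval gives at least 154-fold. No fold is given between active and reactivating cambium, where both libraries are at or under the floor.

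The Lea protein Unigene1801 (307 bases, best hit in Pseudotsuga menziesii, Douglas fir) kept a moderate level. Its reads were 861 in dormant, 85 in reactivating and 81 in active cambium, or 479.5, 47.3 and 45.2 RPKM. It was 10.1-fold lower (8.10 to 12.8) in the reactivating than in the dormant library, and the active to reactivating ratio of 0.95 (0.69 to 1.31) had an interval that spans 1.

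Of the members named for cold and not for LEA, both were highest in the dormant library, and the intervals of their active to reactivating ratios spanned 1. The putative low-temperature-induced protein Unigene48650 (408 bases, best hit in Cupressus sempervirens) had 4485, 140 and 115 reads at the dormant, reactivating and active stages, or 1879, 58.7 and 48.2 RPKM. It was 32.0-fold lower (27.1 to 38.2) in the reactivating than in the dormant library and 39.0-fold lower (32.4 to 47.3) in the active than in the dormant library. What this protein does is not stated by its best hit beyond its name.

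Unigene37035 has a best hit to COR413-TM1 of Cryptomeria japonica, a close relative of Chinese fir. COR413 proteins are membrane proteins induced by cold, and in Arabidopsis some of them sit in chloroplast membranes. The unigene had 723 reads in dormant, 95 in reactivating and 80 in active cambium, or 500.5, 65.7 and 55.4 RPKM. It was 7.61-fold lower (6.14 to 9.53) in the reactivating than in the dormant library, the smallest decrease among the 7 members that were at least 2-fold above both other libraries in the dormant one. Over all 31946 unigenes with at least 50 reads in the 3 libraries, 8.1% had that pattern.

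The LEA domain-containing protein Unigene56541 (867 bases, best hit in Arabidopsis lyrata) had its low point in the reactivating library. Its reads were 343 in dormant, 114 in reactivating and 220 in active cambium, or 67.6, 22.5 and 43.4 RPKM. It was 3.01-fold lower (2.43 to 3.75) in the reactivating than in the dormant library. The active library was 1.93-fold higher (1.53 to 2.44) than the reactivating one, and 2.01-fold higher with edgeR's TMM scaling, so its side of the 2-fold limit depends on the scaling. Between the active and the dormant library it stayed within 2-fold, at 1.56-fold lower (1.31 to 1.85) in the active one.

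A pair of LEA unigenes ran the other way and were lowest at rest. Unigene11757 (474 bases, best hit in Picea glauca) had 67, 154 and 185 reads at the dormant, reactivating and active stages, or 24.2, 55.5 and 66.8 RPKM. It was 2.30-fold higher (1.71 to 3.11) in the reactivating than in the dormant library and 2.76-fold higher (2.08 to 3.71) in the active than in the dormant library.

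Unigene4398 (514 bases), whose best hit is an LEA-like protein of Picea purpurea that is named for its response to abscisic acid, peaked in the reactivating library. It had 17 reads in dormant, 243 in reactivating and 125 in active cambium, or 5.65, 80.8 and 41.6 RPKM. It was 14.3-fold higher (8.74 to 24.9) in the reactivating than in the dormant library and 1.94-fold lower (1.56 to 2.43) in the active than in the reactivating library. By reads it stood at rank 6947 of all unigenes in the reactivating library and at rank 30001 in the dormant library.

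**Figure D2:**
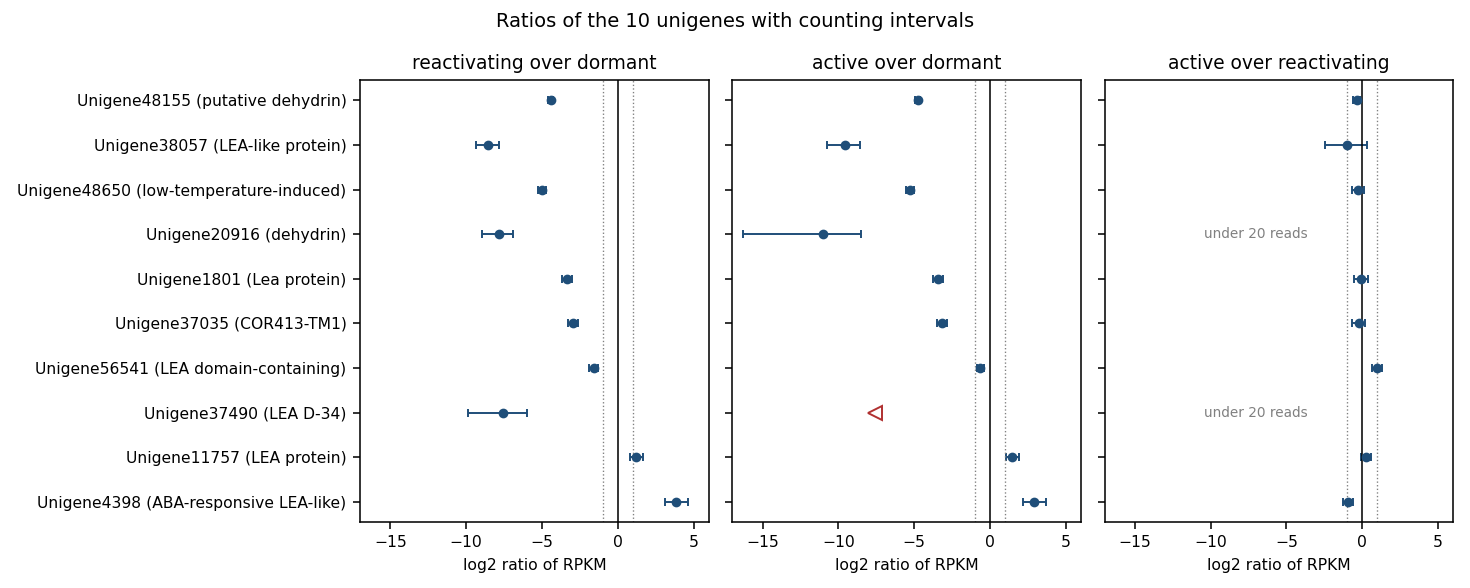
Log2 ratio of RPKM of the 10 unigenes between libraries, 1 panel per comparison. Bars are 95% counting intervals, dotted lines mark 2-fold, and the open triangle marks a bound against 0 reads. In both comparisons with dormant cambium 2 unigenes lie right of 0 and 8 lie left of it, while every measured ratio of active over reactivating cambium lies within 2-fold.

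The comparison of active with reactivating cambium asks what differs once growth has resumed. Of the 10 members 8 were measured there, and 0 were at least 2-fold higher and 0 at least 2-fold lower, while 6.76% of 36079 unigenes were higher and 5.14% lower. The median log2 ratio was -0.26 over these 8 and -0.06 over all measured unigenes. The count of 0 has no test behind it. The intervals of Unigene48155, Unigene56541 and Unigene4398 lay off 1, and those of Unigene38057, Unigene48650, Unigene1801, Unigene37035 and Unigene11757 spanned it.

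Against dormant cambium, the active library had 7 members at least 2-fold lower and 2 at least 2-fold higher, while 13.8% of 36288 unigenes were lower and 18.1% higher. The median log2 ratio was -4.09 over the members, with the 0 reads of Unigene37490 at the floor, and 0.01 over all measured unigenes. The dormant library serves in both comparisons, so their likeness is not independent. The member that was lower in the reactivating library but not in the active one was Unigene56541.

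**Figure D3:**
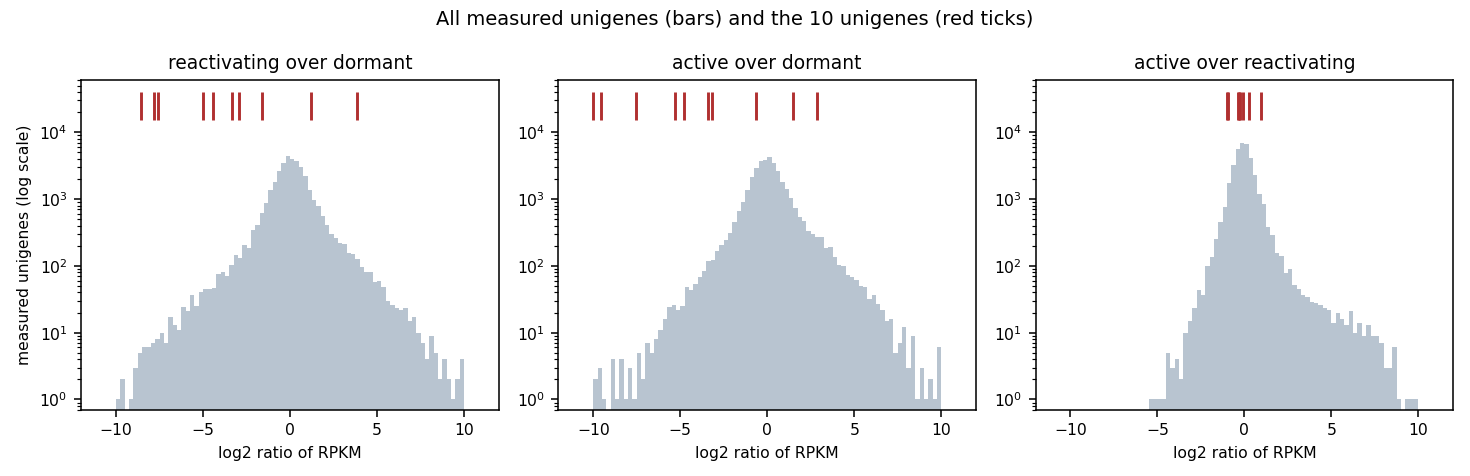
Distribution of log2 ratios of RPKM over all measured unigenes (bars, log scale) with the measured members as red ticks, for reactivating over dormant, active over dormant and active over reactivating cambium. Values beyond 10 are drawn at 10, which moves Unigene20916 in the active over dormant panel. Most ticks lie in the left tail of the comparisons with dormant cambium, 2 lie right of 0, and all 8 ticks lie within 2-fold for active over reactivating cambium, with Unigene38057 and Unigene4398 close to the lower and Unigene56541 close to the upper limit.

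The order of the members by level per length differed between stages. In the dormant library RPKM ran from 4005 (Unigene38057) to 5.65 (Unigene4398), and 1 pair of neighbours, Unigene37035 and Unigene1801, had a ratio whose counting interval spanned 1 (1.04, 0.94 to 1.15). In the reactivating library Unigene48155 was highest at 146 RPKM and Unigene4398, lowest in the dormant library, came next at 80.8 RPKM. After it followed Unigene37035, Unigene48650, Unigene11757 and Unigene1801, and no neighbours from Unigene4398 to Unigene1801 differed beyond their counting intervals. In the active library Unigene48155 again led at 114 RPKM, followed by Unigene11757 at 66.8 RPKM. Next came Unigene37035, and the ratio of Unigene11757 to it had an interval that spanned 1 (1.21, 0.92 to 1.59). No neighbours from Unigene11757 down to Unigene4398 differed beyond their counting intervals in this library. The 3 members with most reads held 79.3% of the members' reads in the dormant library and 61.4% and 62.0% in the reactivating and active libraries.

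The members share few annotations beyond their names. Best hits of 7 lie in conifers and of 3 in flowering plants. Gene ontology terms are given for 4 of the 10. Unigene1801 carries response to water deprivation, Unigene20916 carries defense response and response to light intensity, Unigene37490 carries ion homeostasis and response to metal ion, and Unigene37035 carries a membrane-bounded organelle. The median length was 351.5 bases (155 to 867), against 323 over all unigenes, and a unigene can be a fragment of its transcript.

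The text matches outside the 10 included relatives with the opposite pattern. Unigene1801 shares its best hit with Unigene35806 (238 bases), which had 4 reads in dormant, 61 in reactivating and 55 in active cambium. Unigene35806 was 15.2-fold higher (5.66 to 57.7) in the reactivating than in the dormant library, while Unigene1801 was 10.1-fold lower. In RPKM both stood close together in growing cambium, at 47.3 and 43.8 in the reactivating library, and far apart at rest, at 479.5 and 2.87 in the dormant library.

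A second best hit, the LEA protein of Picea glauca, was shared by 3 unigenes. Unigene377 had 137, 5 and 13 reads at the dormant, reactivating and active stages and was 27.4-fold lower (11.5 to 85.7) in the reactivating than in the dormant library. Unigene11757, described above, was higher in the reactivating library, and Unigene48622 had 0, 3 and 9 reads, too few for a ratio. Reads that fit several close copies are outside a unique count, so the split between such relatives is uncertain.

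**Figure D4:**
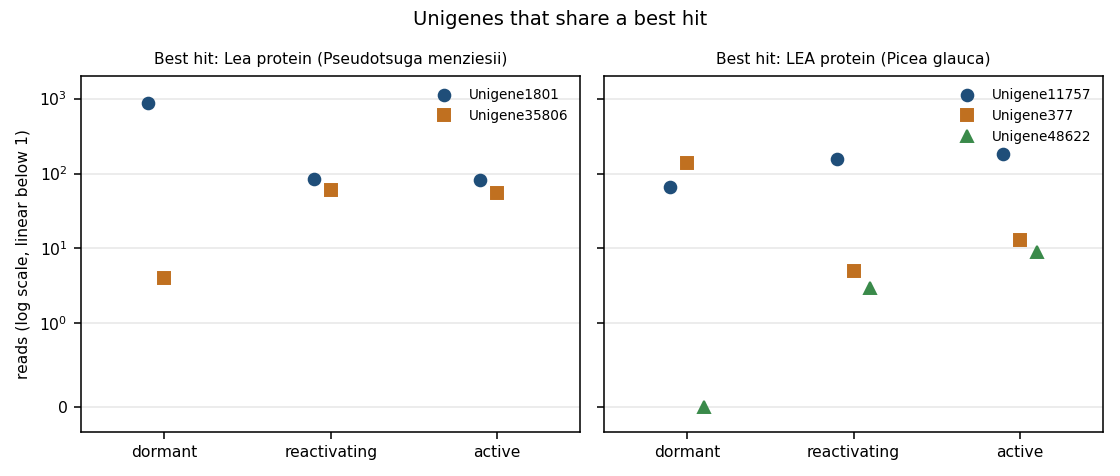
Reads of unigenes that share a best hit, in the dormant, reactivating and active libraries (log scale, linear below 1), 1 point per library. Unigene1801 and Unigene35806 lie at 85 and 61 reads in the reactivating library and at 861 and 4 in the dormant library, and Unigene377 and Unigene11757 stand in opposite order in the reactivating and the dormant library.

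Of the 7 matches outside the 10, the other 4 had few reads or a smaller ratio. The cold-induced thioredoxin domain-containing protein Unigene502 had 50, 22 and 21 reads at the dormant, reactivating and active stages and was 2.27-fold lower (1.35 to 3.94) in the reactivating than in the dormant library. The remaining 3 (Unigene71, Unigene43776 and Unigene43267) had 20 reads or fewer over the 3 libraries. Choosing the 10 matches with most reads in the active library instead, a choice made after seeing the data, kept 7 of the 10 members. Of this choice 7 were at least 2-fold lower and 3 at least 2-fold higher in the reactivating than in the dormant library. Over all measured unigenes 13.8% were lower and 16.9% higher. The median log2 ratio was -2.26 for this choice and 0.07 over all measured unigenes.

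Unigenes with a pattern close to that of 3 members were sought among 2432 that name a protein and have at least 200 reads. Likeness was the distance between log2(RPKM + 0.5) values centred over the 3 libraries. Nearest to the dehydrin Unigene48155 were cytochrome P450 78A4 (Unigene5913, distance 0.37), a putative senescence-associated protein (Unigene40354, 0.37), a cyclophilin (Unigene42178, 0.40), the low-temperature-induced Unigene48650 (0.44) and another cyclophilin (Unigene22502, 0.51). The senescence-associated unigene had 2098, 77 and 53 reads at the dormant, reactivating and active stages.

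Nearest to the LEA-like Unigene38057 were 2 other members, Unigene37490 (distance 1.08) and Unigene20916 (1.25). They were followed by an endo-beta-1,3-glucanase (Unigene41697, 1.69) with 339, 4 and 0 reads at the dormant, reactivating and active stages, and by thaumatin-like proteins (Unigene44483, 2.66, and Unigene42965, 2.80). Nearest to the abscisic acid-responsive LEA-like Unigene4398 were centromeric protein E (Unigene59493, 0.24), a motor of dividing chromosomes, an endo-beta-1,4-glucanase (Unigene45005, 0.25), the replication licensing factor MCM7 (Unigene130, 0.35), a glutamate decarboxylase (Unigene44146, 0.36) and the pectin-related glycosyltransferase QUASIMODO1 (Unigene17996, 0.46). A profile over 3 libraries can be shared by many genes.

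Other genes of cold and drought response were read through lists of descriptions, for the reactivating against the dormant library. Over all 36274 measured unigenes, 13.8% were at least 2-fold lower and 16.9% at least 2-fold higher there. These shares stand beside every list below. The lists are small and, unlike the 10 members, were not chosen by reads, so their shares are not set against those of the members. Of 14 measured unigenes for protective sugars (galactinol, raffinose, stachyose and trehalose), 7 were lower and 0 higher, with a median log2 ratio of -0.98. Galactinol synthase 1 (Unigene36635), which makes the galactosyl donor for raffinose sugars, had 252, 20 and 7 reads at the dormant, reactivating and active stages. The unigene of the list with most reads, a putative trehalose-6-phosphate synthase (Unigene57207), had 846, 924 and 978 reads and stayed within 2-fold.

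The DREB and dehydration-responsive list, matched by name, had 1 of 6 measured unigenes lower and 1 higher, with a median of -0.06. Each is 16.7%, near the shares over all unigenes. The list holds DREB transcription factors, which act upstream of many cold genes, and other proteins with a dehydration-responsive name. DREB1 (Unigene15346) had 566, 360 and 288 reads at the dormant, reactivating and active stages and was 1.57-fold lower (1.38 to 1.80) in the reactivating than in the dormant library. A putative dehydration responsive element binding unigene (Unigene54201) was 3.11-fold lower (2.63 to 3.69), and a dehydration-responsive protein-like unigene (Unigene37336) was 2.01-fold higher (1.49 to 2.76).

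The abscisic acid list, matched by name, had 3 of 12 measured unigenes lower and 0 higher, with a median of -0.18. It takes in any protein phosphatase 2C, whether or not that unigene acts in abscisic acid signalling. An abscisic acid-insensitive 5-like protein (Unigene14359), of a transcription factor family that acts in abscisic acid response, had 487, 95 and 172 reads at the dormant, reactivating and active stages and was 5.13-fold lower (4.11 to 6.46) in the reactivating than in the dormant library. Protein phosphatases 2C, a family that in part restrains abscisic acid signalling, stayed within 2-fold in the examples by the rule, with 863, 726 and 787 reads for Unigene59445 and 350, 585 and 433 reads for Unigene18673. Unigene18673 carries meristem maintenance among its gene ontology terms and is not named for abscisic acid.

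Drought and desiccation names had 1 of 4 measured unigenes lower and 1 higher. Early response to drought 3 (Unigene58356) was 6.48-fold higher (5.54 to 7.62) and an early-responsive to dehydration stress protein (Unigene331) was 2.09-fold lower (1.61 to 2.73) in the reactivating than in the dormant library. Small heat shock proteins, chaperones that also accumulate in seeds, had 0 of 4 lower and 2 higher, and the most abundant (Unigene26755) had 5723, 7973 and 8083 reads at the dormant, reactivating and active stages.

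Seed storage and oil body names had 1 of 6 lower and 3 higher. The oleosins, proteins that coat oil bodies, went in both directions. Unigene44877 was 3.95-fold higher (3.66 to 4.25) and Unigene47240 was 4.34-fold lower (3.21 to 5.97) in the reactivating than in the dormant library. The third named unigene, a basic 7S globulin 2 precursor (Unigene56003), was 23.8-fold higher (15.7 to 37.8).

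**Figure D5:**
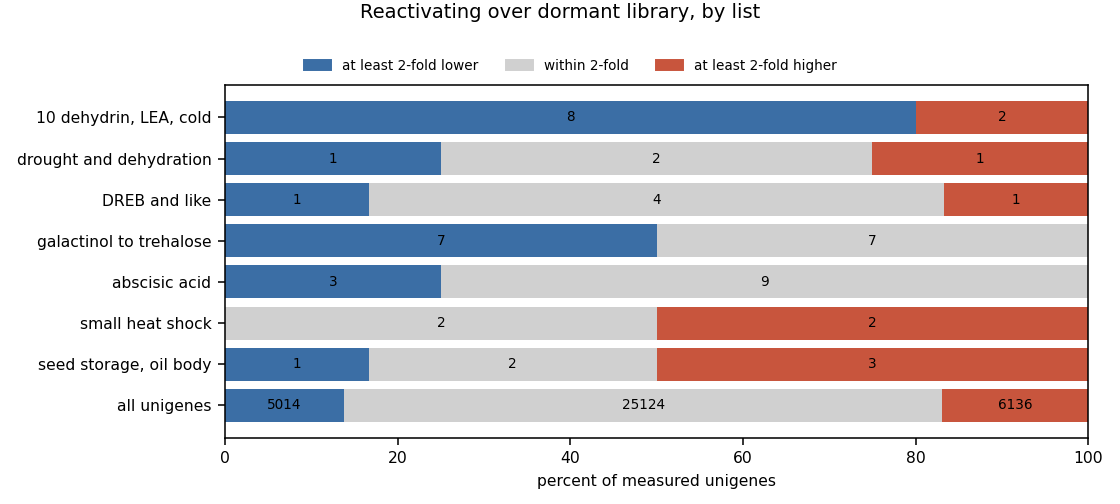
Percent of measured unigenes of each list that were at least 2-fold lower, within 2-fold or at least 2-fold higher in the reactivating than in the dormant library. Numbers in the bars are unigenes, and the lowest bar holds all 36274 measured unigenes. The 10 members have 8 lower and 2 higher, the protective sugars 7 lower of 14, and the small heat shock list 2 higher of 4. The members were chosen by summed reads and the other lists were not, so their bars are not to be set against each other.

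Marker lists of neighbouring cell types were small, and over all measured unigenes 13.8% were lower and 16.9% higher in the reactivating than in the dormant library. The phloem list, 3 sucrose transporter unigenes, had 2 lower and 0 higher in the reactivating than in the dormant library, with summed levels of 133, 28.9 and 34.2 RPKM in the dormant, reactivating and active libraries and none at 0 reads. Its most abundant unigene (Unigene11789) had 243, 229 and 272 reads and stayed within 2-fold. Photosynthesis, a sign of green bark, had 4 of 13 lower, 9 within 2-fold and 0 higher, with 174, 123 and 92.6 RPKM, and 0, 1 and 1 of its 25 unigenes had no read. Xylem names had 2 of 5 higher, 3 within 2-fold and 0 lower, with 254, 384 and 466 RPKM, and 2 of 9 had no read in the dormant library. Resin and bark names had 2 of 6 higher, 3 within 2-fold and 1 lower, with 120, 234 and 84.9 RPKM, and 5, 9 and 7 of 23 had no read. The part of these cell types in the levels of the members was not tested.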

How the data were processed

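The labels give 3 RNA-seq libraries, 1 per stage, sequenced on an Illumina HiSeq instrument after oligo(dT) enrichment, fragmentation to about 200 bp and PCR, per the labels' protocols. The deposited tables list whole counts of uniquely mapped reads per unigene, the RPKM and the percent of each unigene's length covered by reads (coverage), per the file headers. The deposited RPKM equalled count over length and header total within a relative tolerance of 1e-06. Assembler and mapper: not given in the sources used here. Identifiers end in a suffix for seedling RNA, and which RNA was assembled is not stated, so a level here is that of reads placed on a sequence that may not come from cambium. Absence from a table was read as 0 reads.

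Ratios are between RPKM values, with 95% Clopper-Pearson intervals from the reads, which hold counting error alone, since PCR copies of 1 molecule are counted apart. A library at 0 was set to 3 reads. A count of 3 on a unigene of 1 kilobase are an RPKM of about 0.513. A unigene was measured from 20 reads in the pair of libraries on, and 2-fold was the limit. With 1 library per stage no test was possible. The ratio and interval code was tested on simulated data.

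The members and lists were chosen with earlier results of these data known. Every member is named. Of the other text matches, those with most reads and with the extreme ratios (from 20 reads on) are named, and of each list the unigene with most reads and those with the extreme ratios (from 100 reads on), of which the text gives a part. Unigene71, Unigene43776, Unigene43267, Unigene48622 and Unigene502 were named after their values were seen. Alternatives used edgeR 4.0.16 and DESeq2 1.42.0 factors as scaling only, other minimums, ratios and member choices. Python 3.11.15 with scipy 1.17.1 and pandas 2.3.3 was used. No replicate, genome or sequence was used here.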

Additional observations from a re-analysis of the deposited data

How the results depend on the processing

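No paired analysis was possible because the labels give 1 library per stage. All 84 recomputed ratios of single members (TMM, DESeq2 size factors or 1 read added) stayed inside their counting intervals. With TMM, 1 of 8 measured members was at least 2-fold higher in active over reactivating cambium, beside 7.21% of all measured unigenes. With no minimum of reads 1 of 10 was at least 2-fold lower there, beside 9.53%. The main setting had 0 each. Members higher over dormant cambium numbered 1, against 2, at a 4-fold ratio and with reads summed by best hit in both comparisons, and with the interval wholly beyond 2-fold in the reactivating library. Over all measured unigenes, 6.77% (reactivating) and 7.83% (active) were higher at a 4-fold ratio. The shares were 16.9% and 17.6% with reads summed by best hit, and 8.83% with the interval rule in the reactivating library. Unigenes of at least 500 bases left 2 members, so that 1 was higher in each comparison, 1 was lower in reactivating and 0 in active cambium, 0 were set apart in the dormant library, and the medians reversed to 1.12 in both comparisons. The cause is the loss of 8 of the 10 members, which include every one set apart in the dormant library. Over all measured unigenes, not cut by length, 16.9% (reactivating) and 18.1% (active) were higher. In each comparison 13.8% were lower, and 8.1% were set apart in the dormant library. With all 17 text matches the medians were -3.34 (reactivating over dormant) and -3.40 (active over dormant). With the 10 matches with most reads in the reactivating or in the active library, choices made after seeing the data, they were -2.26 and -2.21 under either choice.

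The summed RPKM was 12987 in the dormant library with TMM. With unigenes of at least 500 bases it was 73.3, 103 and 85.0 in the dormant, reactivating and active libraries, and with reads summed by best hit 12514, 462 and 377. With all matches it was 559 and 479 in reactivating and active cambium. Choosing by reads in the reactivating library gave 10102, 537 and 465, and choosing by reads in the active library gave 6138 in the dormant and 464 in the active library. Unigene20916, Unigene37490 and, in the second case, Unigene38057 were then left out. Depth limits what can be said of Unigene20916, Unigene37490 and Unigene38057 in growing cambium, where each had 16 reads or fewer, and tree-to-tree variation is in no interval.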

Other observations

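Read coverage along the Lea unigene Unigene1801 differed between libraries against the number of reads. In the dormant library 861 reads covered 85.7% of its length, while 85 reads from reactivating and 81 reads from active cambium each covered 97.4%. Of 273 unigenes of like read number and length in the dormant library, 3.66% had coverage at or below its value, and their median coverage was 99.2%. Among 111 unigenes with at least 5 times as many reads in the dormant library as in either other one and at least 50 reads in both others, 1 had a dormant coverage at least 10 percentage points below both others, and it was Unigene1801. These limits were set after its coverage had been seen. The other members had a dormant coverage of 86.8% to 99.6%, the lowest being Unigene4398 with 17 reads.

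Unigenes with the gene ontology term response to cold were counted after the data were seen. Of 25 measured, 8 (32%) were at least 2-fold lower and 5 (20%) at least 2-fold higher in the reactivating than in the dormant library. Over all measured unigenes the shares were 13.8% lower and 16.9% higher. The median log2 ratio of the 25 was -0.23. The most abundant was an alpha-glucan water dikinase (Unigene59584), an enzyme that starts starch breakdown in Arabidopsis leaves, with 4348 reads in dormant, 996 in reactivating and 951 in active cambium. It was 4.37-fold lower (4.07 to 4.68) in the reactivating than in the dormant one. A shorter unigene with the same best hit (Unigene16494) was 11.1-fold lower (6.82 to 19.0). The highest ratio among those with at least 100 reads was that of a hypothetical protein (Unigene57980). It had 210, 951 and 657 reads at the dormant, reactivating and active stages. It was 4.53-fold higher (3.90 to 5.28) in the reactivating than in the dormant library. Of 14 unigenes with the term response to water deprivation 4 were lower and 4 higher, and Unigene1801, which carries it, had the lowest ratio among those with at least 100 reads. The highest ratio among those was that of Unigene54241, of unknown description, which also had most reads (530, 1329 and 1340). Unigene54241 was 2.51-fold higher (2.27 to 2.78) in the reactivating than in the dormant library. The term response to abscisic acid stimulus went the other way from the list matched by abscisic acid names. Of 6 measured unigenes with this term 0 were lower and 4 higher, with a median log2 ratio of 1.56. Its 10 unigenes had few reads, 108, 291 and 312 together at the dormant, reactivating and active stages. None of the 10 members carries the term response to cold.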
